A study of Mus musculus with 9 samples.

Results

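The TAM receptors are the receptor tyrosine kinases Tyro3, Axl and Mertk, and their bridging ligands are Gas6 (growth arrest specific 6) and Pros1 (protein S). The 5 genes were taken by symbol from the 55453 lines of a table of read counts per mouse gene. Each of the 5 was found on 1 line, and all 5 passed the filter on low counts, which kept 13568 genes. The measured cells were of ST2, a wild-type line of bone marrow stromal cells founded from a long-term culture of mouse marrow. The 9 libraries formed 3 groups of 3. The unfed group held ST2 cells kept alone and collected at 24 h. The fed 3 h and fed 24 h groups held ST2 cells given aged human blood neutrophils, 10 per ST2 cell, for that time. Before feeding, the neutrophils spent a minimum of 18 h frozen and were labelled on their membranes with 20 µM of a fluorescent dye. Only ST2 cells whose dye signal amounted to at least a whole neutrophil were sorted into the fed groups. The labels name no such uptake gate for the unfed group, so feeding and selection for uptake cannot be told apart. There were no unfed libraries at 3 h, so in the comparison of fed 3 h with unfed cells the feeding and the time of collection cannot be told apart. Between the fed groups, the length of feeding and the time of collection cannot be told apart either. ST2 is 1 line, and the labels number the replicates without stating that they were separate cultures, so p-values measure only the spread between these libraries.

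A dying cell exposes phosphatidylserine, a lipid that living cells keep on the inner face of their membrane. Gas6 and Pros1 bind this lipid through a domain rich in gamma-carboxyglutamate, a residue made by a vitamin K-dependent reaction, and bind a TAM receptor through their other end, so that the dead cell is tethered to the eater. The receptor then signals to the actin machinery that takes in the corpse, and in immune cells it also dampens the response to interferons and other inflammatory signals. Gas6 binds all TAM receptors and Pros1 mainly Tyro3 and Mertk. Mertk is best known from macrophages and Axl from fibroblasts, endothelial cells and stressed or inflamed tissue.

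The receptors and ligands lie on 4 mouse chromosomes (GRCm38, GENCODE M21 annotation, merged exons of each gene). Axl (ENSMUSG00000002602.16) spans chr7:25757273-25788705 on the minus strand, with 5033 exon bases. Tyro3 (ENSMUSG00000027298.17) spans chr2:119797733-119818104 on the plus strand, with 6198 exon bases. Mertk (ENSMUSG00000014361.5) spans chr2:128698956-128802894 on the plus strand, with 4336 exon bases. Gas6 (ENSMUSG00000031451.6) spans chr8:13465374-13494490 on the minus strand, with 2548 exon bases. Pros1 (ENSMUSG00000022912.8) spans chr16:62854307-62929346 on the plus strand, with 4088 exon bases. Gas6 shares 34 exon bases with Tmem255b on the opposite strand, whose count was 0 to 11 per library. The other members share 0 exon bases with another gene.

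The 250 bases before the RefSeq start site are shown for Axl and Tyro3, which were both called higher at 3 h (values below), and for Gas6 and Pros1, which were not (GRCm38.p6, 5′ to 3′ on the strand of the gene). Capitals mark matches, on either strand, to the GC box GGGCGG, the letters bound by Sp1, to the TEAD site GGAATG, and to TTCNNNGAA, the gamma-activated sequence. The windows are chr7:25788734-25788983 (minus strand) for Axl, chr2:119799264-119799513 (plus) for Tyro3, chr8:13494536-13494785 (minus) for Gas6 and chr16:62854057-62854306 (plus) for Pros1. The Tyro3 window lies inside the Tyro3 span given above, downstream of its annotated start. In it, 2 annotated transcripts have an exon, against 0 in the windows of the other members, so it is not like the others.
Axl: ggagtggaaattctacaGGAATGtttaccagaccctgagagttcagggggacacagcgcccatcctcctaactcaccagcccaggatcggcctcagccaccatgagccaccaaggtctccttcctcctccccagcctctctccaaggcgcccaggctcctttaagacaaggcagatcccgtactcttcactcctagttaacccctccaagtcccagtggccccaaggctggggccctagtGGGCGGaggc
Tyro3: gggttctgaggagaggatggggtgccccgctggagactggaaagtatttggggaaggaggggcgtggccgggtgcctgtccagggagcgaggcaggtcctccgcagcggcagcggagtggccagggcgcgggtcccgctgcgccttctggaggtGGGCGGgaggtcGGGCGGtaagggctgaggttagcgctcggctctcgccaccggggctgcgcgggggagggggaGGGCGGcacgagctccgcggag
Gas6: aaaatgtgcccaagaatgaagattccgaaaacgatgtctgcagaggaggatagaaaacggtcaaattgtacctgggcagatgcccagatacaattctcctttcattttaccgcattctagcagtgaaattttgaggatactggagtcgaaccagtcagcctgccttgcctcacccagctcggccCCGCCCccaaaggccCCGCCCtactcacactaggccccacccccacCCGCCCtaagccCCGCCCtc
Pros1: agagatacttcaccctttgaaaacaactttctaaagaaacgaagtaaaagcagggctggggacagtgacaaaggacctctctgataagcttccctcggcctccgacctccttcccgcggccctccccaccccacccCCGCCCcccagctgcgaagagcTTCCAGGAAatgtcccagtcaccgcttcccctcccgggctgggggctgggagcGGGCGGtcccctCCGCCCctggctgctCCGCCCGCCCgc

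The GC box was the motif that these windows had in common. It occurred 1 time in the Axl window, 3 times in Tyro3, 3 times in Mertk (window not printed), 4 times in Gas6 and 5 times in Pros1, where the last pair of matches overlaps. Of 32851 windows of this length before RefSeq start sites, 32.7% held it. The TEAD letters were present only in the Axl window among the 5 (12.6% of all windows), and the letters of the gamma-activated sequence only in the Pros1 window (7.02%). The letters of the AP-1 site TGANTCA (6.75% of all windows), the cyclic AMP response element TGACGTCA (1.55%), the E-box CACGTG (6.02%) and the core of the serum response element (0.0609%) were in none of the 5 windows. The windows of the 5 genes were 54.8% (Gas6) to 73.2% (Tyro3) G or C, against a median of 52.4% over all windows. A match describes the letters and is not a measured binding site.

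Total counts ran from 44442664 to 55971275 per library. Expression levels are given as CPM (counts per 1000000 counts of a library, scaled by the TMM factors of edgeR, trimmed mean of M values), with the SD over the 3 libraries of a group. Of 15 marrow stromal marker genes, 14 exceeded a mean of 1 CPM in every group. The list summed to between 41270 and 46936 CPM per library. The exception, Thy1, had 0 counts in the unfed and fed 24 h groups. Single markers did change. Of the 14 tested, 4 were called (defined below) higher and 6 lower at 3 h, against 25.1% and 25.5% of all tested genes. At 24 h 4 were called higher and 0 lower, against 14.9% and 15.9%. Over the unfed, fed 3 h and fed 24 h libraries, Cxcl12 had 798799, 326762 and 1269918 counts and Vim 1074473, 1443204 and 1106780. Macrophage markers summed to 23.3 to 28.9 CPM over 16 genes, and the defining genes Adgre1, Tyrobp, C1qa, C1qb and C1qc had 0 counts in all 9 libraries, which allows up to 0.00677 CPM each (3 counts, counting error only). Of the 4 macrophage markers tested, 3 were called higher and 1 lower at 3 h, against 25.1% and 25.5% of all tested genes. At 24 h 1 was called higher and 0 lower, against 14.9% and 15.9%. Some other leukocyte genes of these lists had more raw counts in the fed groups, and others did not. Summed over the unfed, fed 3 h and fed 24 h libraries in turn, Fcer1g had 2, 12 and 13 counts, Laptm5 1, 12 and 13, Spi1 1, 8 and 12, and Ptprc 0, 7 and 5. In the same order Cd14 had 2580, 3366 and 2913 counts, Cd68 170, 251 and 204, and Csf1r 22, 50 and 35. Lyz2 had 605, 394 and 1070 counts, fewer than unfed at 3 h and more at 24 h. Cx3cr1 had 3, 2 and 0 counts, Csf3r 1, 0 and 0, and Timd4 1, 0 and 0. These sums are not scaled for depth. Mouse neutrophil markers summed to 2.96 to 3.88 CPM in unfed, 1.11 to 1.76 CPM in fed 3 h and 4.32 to 5.32 CPM in fed 24 h libraries, with S100a9 and Ngp at 0 in all groups. Most of these counts were of Camp (355, 132 and 565 in the same order) and Mmp9 (102, 42 and 143), both present in unfed cells. The eaten cells were human, and the table contained mouse genes. Mitochondrial genes held 1.12% to 2.22% of the counts, and all fed 24 h libraries (1.78% to 2.22%) lay above all others (up to 1.61%). Genes linked to ribosomal RNA held 0.0904% to 0.350%, with the highest value in a fed 24 h library and the groups overlapping. The part of these shares and of the marker sums in the results was not tested, apart from a fit without the mitochondrial and ribosomal RNA genes, in which each of the 15 member results kept its direction and its side of the threshold.

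In cells sorted after 3 h, Axl and Tyro3 were higher and Gas6 was at 0.415 times its unfed level. In cells sorted after 24 h, Gas6 and Pros1 were above and Axl slightly below the unfed level. Mertk was close to absent throughout. A gene was called when its adjusted p in the quasi-likelihood test of edgeR (Benjamini-Hochberg over the 13568 genes) was under 0.05. Of the 5 members, 3 were called at 3 h against unfed, where 50.6% of all tested genes were called. At 24 h against unfed 3 of 5 were called, against 30.8% of all genes, and between fed 24 h and fed 3 h all 5 were called, against 60.9% of all genes. With such shares over all genes, the number of members called is no result by itself. The 3 groups enter 3 comparisons, so the comparisons share libraries. In bulk libraries, fewer cells of a type and less RNA per cell cannot be told apart.

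**Figure D1:**
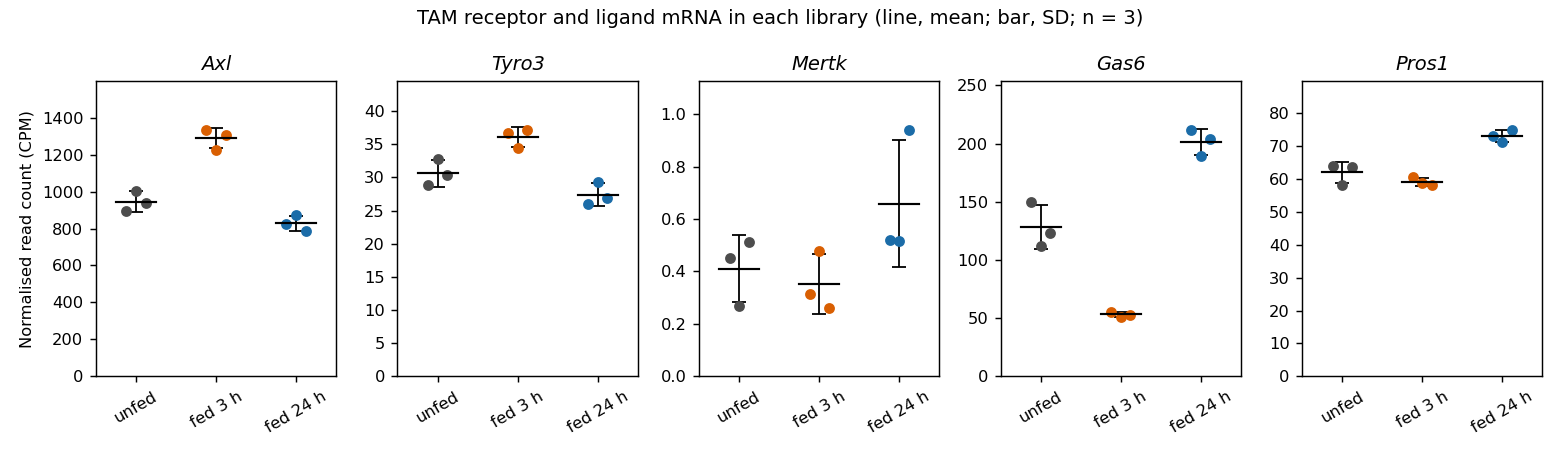
Normalised read count (CPM, linear axis from 0) of the 5 genes in each of the 9 libraries. Points are libraries, the horizontal line is the mean and the bar the SD (n = 3 per group). Axl and Tyro3 are highest in the fed 3 h libraries, where Gas6 is lowest, and Mertk stays under 1 CPM in all groups.

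Axl is the TAM receptor with the highest affinity for Gas6. In the unfed libraries it measured 893, 1005 and 937 CPM in replicates 1, 2 and 3. The fed 3 h libraries had 1332, 1227 and 1307 CPM, and the fed 24 h libraries 823, 872 and 787 CPM. The 3 groups do not overlap, with every fed 3 h library above and every fed 24 h library below the unfed libraries. From a mean of 945 ± 56.5 CPM (SD, n = 3), Axl rose 1.36-fold at 3 h, to 1289 ± 54.7 CPM (log2 0.45, SE 0.0542, edgeR adjusted p = 6.05e-06). At 24 h its mean was 827 ± 43.0 CPM, and it fell by 0.19 on the log2 scale against unfed (SE 0.0541, edgeR adjusted p = 0.0143). That small call at 24 h rests on single libraries. It was lost without unfed replicate 2 (−0.14, adjusted p = 0.0736), without fed 24 h replicate 1 (−0.18, adjusted p = 0.0585) and without fed 24 h replicate 3 (−0.15, adjusted p = 0.0725). Between the fed groups, Axl fell by 0.64 from 3 h to 24 h (SE 0.0543, edgeR adjusted p = 6.66e-08).

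Tyro3, a receptor best known from the nervous system, was higher at 3 h as well, at far lower counts than Axl. The unfed libraries had 28.8, 32.8 and 30.3 CPM. The fed 3 h libraries had 36.7, 34.4 and 37.1 CPM, and the fed 24 h libraries 26.0, 29.3 and 26.9 CPM. All fed 3 h libraries lay above all others, while the unfed and fed 24 h libraries overlapped. Tyro3 rose 1.18-fold at 3 h (means 30.6 ± 1.99 and 36.1 ± 1.45 CPM; log2 0.24, SE 0.0604, edgeR adjusted p = 0.00398). At 24 h it had a mean of 27.4 ± 1.69 CPM, with a log2 difference from unfed of −0.16 (SE 0.0609, edgeR adjusted p = 0.0578). That value did pass the threshold without unfed replicate 1 (−0.20, adjusted p = 0.0231) or without fed 24 h replicate 2 (−0.21, adjusted p = 0.0224). From 3 h to 24 h of feeding, Tyro3 fell by 0.40 (SE 0.0603, edgeR adjusted p = 3.34e-05).

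Mertk, the receptor by which macrophages clear apoptotic cells, was near the limit of detection in the stromal line. The unfed libraries held 21, 13 and 23 raw counts of it, the fed 3 h libraries 15, 22 and 13, and the fed 24 h libraries 26, 29 and 50. These correspond to 0.453, 0.267 and 0.511 CPM, then 0.314, 0.479 and 0.260 CPM, then 0.518, 0.518 and 0.938 CPM. The fed 24 h libraries were the highest, and 1 of them, replicate 3, held 50 of the 105 counts of its group. Against unfed, Mertk was called neither at 3 h (log2 −0.23, SE 0.372, edgeR adjusted p = 0.643) nor at 24 h (log2 0.69, SE 0.333, edgeR adjusted p = 0.132), although the unfed and fed 24 h libraries did not overlap. It was called between the fed groups, at 0.91 above the 3 h level (SE 0.340, edgeR adjusted p = 0.0293). The call ended without fed 24 h replicate 3, where the value was 0.57 (adjusted p = 0.190), and without fed 3 h replicate 1 (0.84, adjusted p = 0.0884) or fed 3 h replicate 3 (0.73, adjusted p = 0.113). Without fed 24 h replicate 3 the difference from unfed was 0.35. The interval of the difference at 3 h, from −0.95 to 0.50 (95%, from the SE), covers both directions.

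Gas6, the ligand of all TAM receptors, had the largest change of the called members in each comparison. The unfed libraries had 150, 112 and 123 CPM. The fed 3 h libraries had 55.4, 51.1 and 53.0 CPM, and the fed 24 h libraries 212, 190 and 204 CPM. The groups are far apart, with all fed 3 h libraries under all unfed ones and all fed 24 h libraries over them. Gas6 fell by 1.27 on the log2 scale at 3 h, from 128 ± 19.2 to 53.2 ± 2.14 CPM (SE 0.0807, edgeR adjusted p = 6.98e-09). At 24 h it had risen above unfed, to 202 ± 11.0 CPM (log2 0.65, SE 0.0775, edgeR adjusted p = 3.89e-05). Between the fed groups the rise was 3.79-fold (log2 1.92, SE 0.0812, edgeR adjusted p = 4.48e-11), and 2.23% of all tested genes differed by more in either direction. For Gas6, 3.59% of genes differed by more at 3 h against unfed and 5.23% at 24 h. Under 18 alternatives the log2 value lay between −1.36 and −1.15 at 3 h and between 0.57 and 0.78 at 24 h, always called.

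Pros1 is known as an anticoagulant cofactor in plasma as well as a TAM ligand. The unfed libraries had 63.9, 58.3 and 63.8 CPM. The fed 3 h libraries had 60.5, 58.7 and 58.3 CPM, and the fed 24 h libraries 73.1, 71.2 and 74.8 CPM. The unfed and fed 3 h libraries overlapped and all fed 24 h libraries lay above both. At 3 h the log2 difference from unfed was −0.07 (SE 0.0470, edgeR adjusted p = 0.248), with means of 62.0 ± 3.18 and 59.1 ± 1.17 CPM. At 24 h Pros1 rose to 73.0 ± 1.80 CPM (log2 0.24, SE 0.0465, edgeR adjusted p = 0.00153). From 3 h to 24 h of feeding it rose by 0.30 (SE 0.0466, edgeR adjusted p = 3.55e-05).

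Counted by overlap alone, 3 of 5 members (Axl, Tyro3, Gas6) had fed 3 h libraries fully apart from the unfed ones, as had 58.2% of tested genes (29.1% higher and 29.1% lower). At 24 h against unfed 4 of 5 were apart (Tyro3 was not), against 43.2% of genes, and between the fed groups 5 of 5, against 65.9% of genes (33.3% higher and 32.6% lower). By direction, 2 members were called higher and 1 lower at 3 h, where 25.1% and 25.5% of all genes were called in those directions. At 24 h 2 were higher and 1 lower, against 14.9% and 15.9% of all genes, and from 3 h to 24 h of feeding 3 were higher and 2 lower, against 30.8% and 30.2%.

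**Figure D2:**
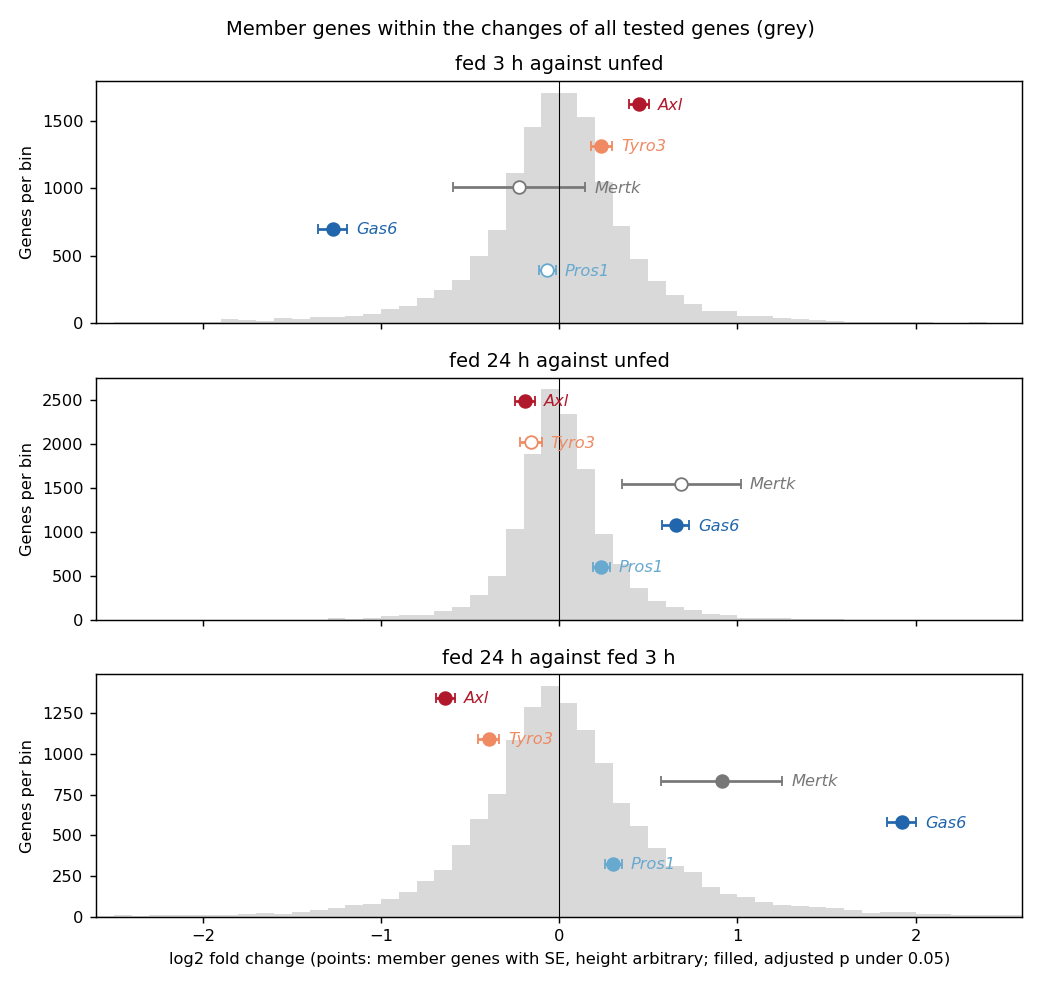
Log2 fold change of each member (points with SE, filled where the edgeR adjusted p is under 0.05) over a histogram of all tested genes (grey, genes per bin, values beyond 2.6 in size not drawn), for the 3 comparisons. Gas6 lies in the lower tail at 3 h (−1.27) and in the upper tail between the fed groups (1.92), while Axl and Tyro3 lie on the side opposite to Gas6 in each panel.

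Levels of different genes were compared per length, as CPM per kb of merged exon, with ranks among the 13446 tested genes that have an exon length. On this scale the order was Axl, Gas6, Pros1, Tyro3, Mertk in 9 of 9 libraries. Axl stood at 188 ± 11.2 CPM per kb in unfed cells (rank 194), 256 ± 10.9 at 3 h (rank 145) and 164 ± 8.54 at 24 h (rank 228). Gas6 stood at 50.4 ± 7.52 CPM per kb in unfed cells (rank 929), 20.9 ± 0.842 at 3 h (rank 2404) and 79.2 ± 4.34 at 24 h (rank 550). Both are thus well above the typical gene, Gas6 with a wide swing in rank. Pros1 measured 15.2 ± 0.777, 14.5 ± 0.285 and 17.9 ± 0.441 CPM per kb in unfed, fed 3 h and fed 24 h cells. Tyro3 measured 4.94 ± 0.322, 5.82 ± 0.234 and 4.42 ± 0.273, and Mertk 0.0947 ± 0.0294, 0.0809 ± 0.0263 and 0.152 ± 0.0560 CPM per kb. Neighbours in this order differed by more than their spread in every group.

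The receptor transcripts were therefore almost all Axl. Its share of the 3 receptors, per kb, was 97.4% without feeding, 97.7% after 3 h and 97.3% after 24 h of feeding. Tyro3 took 2.56%, 2.22% and 2.62%, and Mertk 0.0497%, 0.0312% and 0.0909%. Gas6 dominated the ligands, at 76.7% ± 1.97 of the sum of Gas6 and Pros1 without feeding, 59.0% ± 0.661 after 3 h and 81.6% ± 0.642 after 24 h (SD, n = 3). The Gas6 to Pros1 ratio per kb was 3.31 ± 0.383, 1.44 ± 0.0391 and 4.43 ± 0.192 in the same groups, with no overlap between them. The ratio of summed receptors to summed ligands separated the groups as well. It was 2.45 to 3.51 in the unfed libraries, 7.25 to 7.58 in the fed 3 h libraries and 1.64 to 1.94 in the fed 24 h libraries. The receptor sum itself was 193 ± 11.5, 262 ± 11.1 and 169 ± 8.70 CPM per kb, and the ligand sum 65.5 ± 8.10, 35.3 ± 1.08 and 97.0 ± 4.64 CPM per kb. These ratios are of transcripts and have no test of their own.

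**Figure D3:**
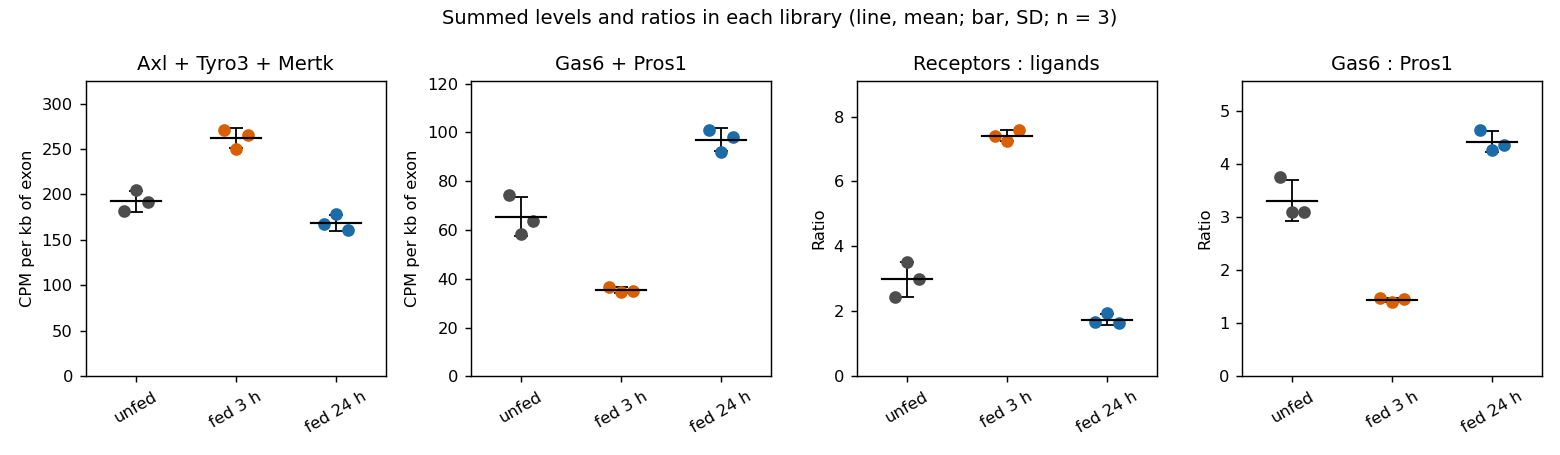
Summed receptor level and summed ligand level (CPM per kb of exon), the ratio of receptors to ligands, and the ratio of Gas6 to Pros1, in each library (points; line, mean; bar, SD; n = 3). The fed 3 h libraries have the highest receptor to ligand ratio (7.25 to 7.58) and the fed 24 h libraries the lowest (1.64 to 1.94).

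Among 30 tested receptor tyrosine kinases, the cell surface receptors for growth factors and related ligands, Axl ranked first in unfed and fed 3 h cells. Its neighbour in that order was Pdgfrb, the platelet-derived growth factor receptor that marks stromal cells and pericytes. Pdgfrb measured 168 ± 4.05, 136 ± 1.64 and 175 ± 4.32 CPM per kb in unfed, fed 3 h and fed 24 h cells. The libraries of both genes were apart in unfed cells, where Axl had 177 to 200 and Pdgfrb 163 to 171 CPM per kb, and at 3 h. At 24 h Pdgfrb came first, but its range of 170 to 178 CPM per kb overlapped that of Axl, 156 to 173. Tyro3 ranked 13th, 12th and 13th of the 30 and Mertk 25th, 26th and 24th in unfed, fed 3 h and fed 24 h cells. Of the 27 kinases outside the TAM family, 9 were called higher and 9 lower at 3 h, 5 and 6 at 24 h, and 7 and 9 from 3 h to 24 h of feeding. Among those with at least 5 CPM, the largest changes at 3 h were rises of Ret (log2 1.24, edgeR adjusted p = 3.78e-09) and of Fgfr1, a fibroblast growth factor receptor (0.94, adjusted p = 2.18e-10), while Pdgfrb fell by 0.31 (adjusted p = 1.80e-05).

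**Figure D4:**
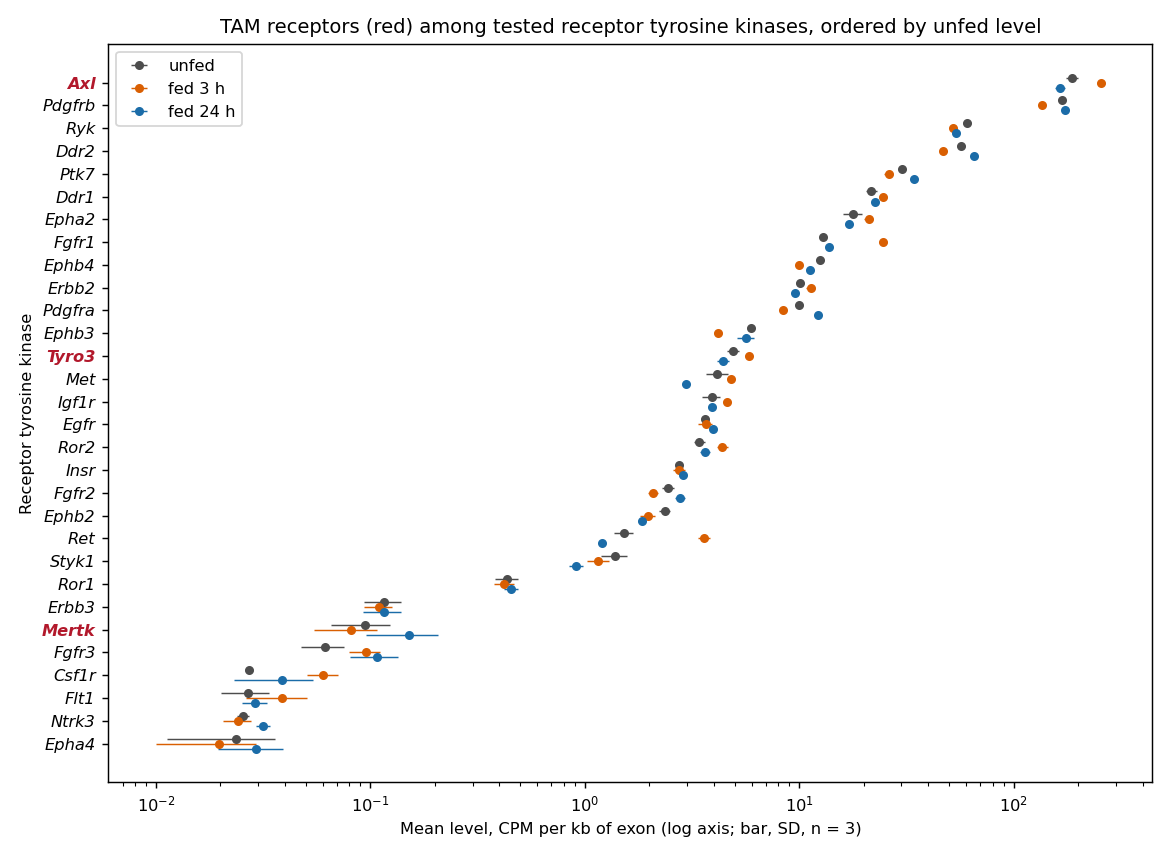
Mean level of the 30 tested receptor tyrosine kinases in CPM per kb of exon (log axis; bar, SD, n = 3), ordered by the unfed level, with the TAM receptors in red. Axl is at the top, Tyro3 in the middle and Mertk near the bottom.

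The genes whose log2 CPM followed each member most closely over the 9 libraries were found among 9364 tested genes. For Gas6 they were Ldhb, a lactate dehydrogenase subunit (Pearson r 0.999), Selenop, the secreted selenium carrier (r 0.999), and Elmo1, an engulfment adaptor (r 0.999). Selenop went from 176 to 71.2 and 278 CPM in unfed, fed 3 h and fed 24 h cells, and Elmo1 from 44.0 to 34.2 and 50.6 CPM. For Axl they were Slc48a1, a haem transporter (r 0.998), Tubb6, a beta-tubulin (r 0.997), and Podnl1 (r 0.996). For Tyro3 they were Prmt6 (r 0.991), Hnrnpf (r 0.989) and L3mbtl2 (r 0.989), and for Pros1 they were Grem1, a secreted inhibitor of bone morphogenetic proteins (r 0.990), Naalad2 (r 0.990) and Zeb2 (r 0.987). These coefficients describe 9 libraries in 3 groups, so differences between groups weigh heavily in them. An r above 0.9 was reached by 1431 genes for Gas6, 1525 for Axl, 1185 for Tyro3 and 375 for Pros1. For Mertk, whose counts are few, only 6 genes reached it, led by Rnf146 (r 0.943), Zbtb18 (r 0.918) and Gpbp1l1 (r 0.914).

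Genes around the TAM system were taken from 12 lists, and a list is described by how many of its tested genes were called in each direction. The shares over all tested genes, given above for each direction, are the reference.

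The first list held genes that have been described as other bridges and receptors for phosphatidylserine and dead cells, of which 14 of 22 were tested. At 3 h 7 were higher and 4 lower, at 24 h 4 were higher and 2 lower, and from 3 h to 24 h of feeding 4 were higher and 5 lower. The 24 h counts were 2 and 0 without replicate 1 of fed 24 h, 3 and 4 without replicate 2 of fed 24 h, 3 and 0 without replicate 3 of fed 24 h, and 3 and 1 without replicate 2 of unfed. Havcr2 (Tim-3), a phosphatidylserine receptor, rose at 3 h from 0.873 ± 0.241 to 6.38 ± 0.320 CPM (log2 2.86, edgeR adjusted p = 2.65e-09) and was back at 0.975 ± 0.122 CPM at 24 h. Itgb3, a subunit of the integrin that binds Mfge8, rose by 0.41 at 3 h (adjusted p = 1.10e-05). Lrp1 fell by 0.23 (adjusted p = 0.00768) and its bridge Calr (calreticulin) by 0.33 at 3 h. Mfge8 is the bridge between phosphatidylserine and integrins. It rose at 24 h, from 323 ± 0.727 to 382 ± 19.2 CPM (log2 0.24, edgeR adjusted p = 0.00120). Its 3 h value was 0.14 (adjusted p = 0.0195), a call that ended without replicate 1 of fed 3 h or replicate 3 of fed 3 h (values over the alternatives 0.12 to 0.17).

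Of 3 candidate further TAM ligands, 1 was tested. Lgals3 (galectin-3) measured 461 ± 16.0, 543 ± 20.9 and 499 ± 17.2 CPM in unfed, fed 3 h and fed 24 h cells and rose at 3 h (log2 0.23, edgeR adjusted p = 0.000543). At 24 h its value against unfed was 0.11 (adjusted p = 0.0715), called without replicate 1 of unfed or replicate 3 of fed 24 h, with upper-quartile factors, with the DESeq2 Wald test and with the stricter filter (values over the alternatives 0.09 to 0.15). Tub had 3 counts and Tulp1 0 counts over all libraries.

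Gas6 and Pros1 need gamma-carboxylation to bind the lipid. The vitamin K cycle list had 9 tested genes, of which 4 were higher and 3 lower at 3 h, 1 higher and 2 lower at 24 h, and 3 higher and 3 lower between the fed groups. The number higher at 3 h was 2 without replicate 2 of unfed, and the number lower at 24 h was 1 without any 1 of the unfed libraries or replicate 1 or 3 of fed 24 h. The former was also 2 with no filter, and the latter 1 with upper-quartile factors, no filter or the replicate block. Ggcx, the gamma-glutamyl carboxylase itself, measured 56.9 ± 2.42, 45.4 ± 3.14 and 60.8 ± 3.42 CPM in unfed, fed 3 h and fed 24 h cells. It fell by 0.33 at 3 h (edgeR adjusted p = 0.000244) and rose by 0.42 from 3 h to 24 h of feeding (adjusted p = 1.16e-05), with 0.10 at 24 h against unfed (adjusted p = 0.224). Vkorc1, which recycles vitamin K, had 5.20 ± 0.990, 4.01 ± 0.178 and 5.61 ± 0.383 CPM and rose by 0.48 between the fed groups (adjusted p = 0.00344). Its value at 3 h was −0.38 (adjusted p = 0.0217), a call that ended without replicate 1 of unfed, replicate 2 of fed 3 h or replicate 3 of fed 3 h (values over the alternatives −0.48 to −0.22). Vkorc1l1, its paralogue, had the opposite course and fell by 0.22 at 24 h (adjusted p = 0.00116).

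Of 14 other vitamin K-dependent proteins, 4 were tested. At 3 h 0 were higher and 3 lower, at 24 h 1 was higher and 1 lower, and between the fed groups 3 were higher and 0 lower. The lower call at 24 h (Postn, −0.27) ended without replicate 2 or 3 of unfed or replicate 1 or 2 of fed 24 h, with limma-voom and in the fit of the 6 libraries compared, and 2 were higher without replicate 1 of unfed. Mgp (matrix Gla protein), an inhibitor of mineralization, measured 95.8 ± 10.2, 82.9 ± 9.55 and 188 ± 2.26 CPM in unfed, fed 3 h and fed 24 h cells. It rose by 0.98 at 24 h against unfed (edgeR adjusted p = 1.63e-06). The transmembrane proteins Prrg1 and Prrg2 fell at 3 h by 0.64 (adjusted p = 0.000506) and 0.52 (adjusted p = 0.000752), at levels under 10 CPM.

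TAM receptors are cut from the cell surface by the metalloproteases Adam10 and Adam17, and Timp3 inhibits Adam17. The list had 10 tested genes, of which 3 were higher and 3 lower at 3 h, 3 and 2 at 24 h, and 5 and 2 between the fed groups. The number lower at 3 h was 1 without replicate 1 of unfed or replicate 2 of fed 3 h. The number lower at 24 h was 0 without replicate 2 of unfed or replicate 1 of fed 24 h, and 1 without replicate 1 or 3 of unfed, replicate 3 of fed 24 h or any 1 of the fed 3 h libraries, and with upper-quartile factors, no filter, the replicate block or the 6 libraries compared. Adam17 fell by 0.16 at 3 h, from 93.3 ± 3.24 to 83.5 ± 0.348 CPM (edgeR adjusted p = 0.00377), and measured 94.5 ± 1.18 CPM at 24 h. Adam10 had −0.09 at 3 h (adjusted p = 0.101) and 0.08 at 24 h (adjusted p = 0.199). Adam9, a related metalloprotease, rose by 0.37 at 24 h (adjusted p = 0.000144), from 269 ± 5.15 to 347 ± 23.6 CPM. The inhibitors rose at 3 h. Timp3 rose by 1.81 at 3 h, from 122 ± 9.40 to 428 ± 54.6 CPM (adjusted p = 1.06e-10), and Timp1 by 1.33, from 223 ± 3.40 to 561 ± 25.4 CPM (adjusted p = 2.24e-11). At 24 h they had 103 ± 4.11 and 213 ± 4.93 CPM.

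Signalling downstream of the receptors runs through the phosphoinositide 3-kinase, Src kinases and the adaptors that reach Rac. Of 30 tested genes, 11 were higher and 7 lower at 3 h, 9 and 9 at 24 h, and 8 and 13 between the fed groups. The number higher at 3 h was 6 without replicate 1 of unfed or replicate 1 of fed 3 h and 7 without replicate 2 of fed 3 h or with no filter. Over the alternatives, 6 to 10 were higher and 6 to 10 lower at 24 h. Pik3r1, the regulatory subunit of phosphoinositide 3-kinase, fell by 0.71 at 3 h (edgeR adjusted p = 2.80e-08) and rose by 0.23 at 24 h (adjusted p = 0.00308). The catalytic subunit Pik3cb had the opposite signs, 0.52 at 3 h (adjusted p = 0.000384) and −0.69 at 24 h (adjusted p = 0.000193). Elmo1, part of the module that activates Rac during engulfment, fell by 0.36 at 3 h (adjusted p = 1.01e-05) and rose by 0.20 at 24 h (adjusted p = 0.00392). Src rose by 0.54 at 3 h (adjusted p = 4.76e-07), from 69.6 ± 4.55 to 101 ± 3.18 CPM, and measured 65.8 ± 2.18 CPM at 24 h.

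The list of genes by which TAM signalling dampens inflammation had 13 tested genes, of which 3 were higher and 5 lower at 3 h, 3 and 2 at 24 h, and 6 and 4 between the fed groups. The number higher at 24 h was 1 without replicate 3 of unfed or replicate 1 or 3 of fed 24 h, and 2 without replicate 1 or 2 of unfed or replicate 2 of fed 24 h. It was 5 with upper-quartile factors or the stricter filter, and 2 with no filter or the replicate block. In immune cells the receptors work with the interferon receptor and induce Socs1 and Socs3, inhibitors of cytokine signalling. Here Socs3 fell by 0.42 at 3 h, from 32.1 ± 2.57 to 24.0 ± 2.49 CPM (edgeR adjusted p = 0.000154), and rose by 0.62 from there to 36.7 ± 0.773 CPM at 24 h (adjusted p = 1.87e-06). Its value at 24 h against unfed was 0.19 (adjusted p = 0.0477; 0.13 to 0.25 over the alternatives), a call that ended when replicate 1 or 3 of unfed or any 1 of the fed 24 h libraries was left out. Socs1, at 3.69 ± 0.200 CPM in unfed cells, fell by 0.68 at 3 h (adjusted p = 0.000436) and by 0.60 at 24 h (adjusted p = 0.00267). Twist2, a repressor of inflammatory genes, rose by 0.43 at 3 h (adjusted p = 2.34e-05).

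Transcription factors known to act on TAM genes in other cells made up a list of 19 tested genes, of which 8 were higher and 5 lower at 3 h, 3 and 6 at 24 h, and 7 and 9 between the fed groups. At 24 h the numbers ran from 2 to 4 higher and from 4 to 7 lower over the alternatives. Liver X receptors (Nr1h2 and Nr1h3) are activated by sterols and act on Mertk in macrophages. Nr1h3 measured 4.53 ± 0.594, 2.11 ± 0.626 and 4.88 ± 0.348 CPM in unfed, fed 3 h and fed 24 h cells and fell by 1.10 at 3 h (edgeR adjusted p = 7.30e-05). Nr1h2 measured 50.5 ± 1.30, 48.0 ± 2.04 and 53.5 ± 3.87 CPM in the same order, with −0.07 at 3 h (adjusted p = 0.304). Fosl1, a subunit of AP-1, rose by 0.69 at 3 h (adjusted p = 3.10e-06) and fell by 0.31 at 24 h (adjusted p = 0.00779). Tead4, a factor of the TEAD family, rose by 0.51 at 3 h (adjusted p = 0.00117), from 4.53 ± 0.392 to 6.46 ± 0.614 CPM. It fell by 0.43 at 24 h (adjusted p = 0.0102). Whether it binds the letters marked in the Axl window was not tested. Sp1, the factor of the GC box, had −0.07 at 3 h (adjusted p = 0.252) and fell by 0.24 at 24 h (adjusted p = 0.00210). Jun rose by 1.27 at 24 h (adjusted p = 1.50e-06).

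Targets of the liver X receptors were mostly lower at 3 h and higher between the fed groups. Of 13 tested genes 1 was higher and 8 lower at 3 h, where the median log2 change was −0.42 against −0.01 over all tested genes. At 24 h 5 were higher and 0 lower (median 0.11), and between the fed groups 10 were higher and 1 lower (median 0.92). The number higher at 24 h was 2 without replicate 2 of unfed or replicate 3 of fed 24 h, 7 without replicate 1 of unfed, and 3 without replicate 3 of unfed, replicate 2 or 3 of fed 3 h, or replicate 1 or 2 of fed 24 h. It was 3 as well with the DESeq2 Wald test, no filter or the replicate block. The number higher at 3 h was 2 without replicate 3 of unfed or with no filter. Scd2, a fatty acid desaturase, fell by 1.36 at 3 h (edgeR adjusted p = 2.08e-10), from 2317 ± 234 to 905 ± 7.71 CPM, and Scd1 by 0.87. Abca1, the cholesterol exporter, measured 2.27 ± 0.471, 1.82 ± 0.0394 and 4.33 ± 0.241 CPM in unfed, fed 3 h and fed 24 h cells and rose by 0.93 at 24 h (adjusted p = 0.000271). Arl4c was the member of the list that rose at 3 h (0.44, adjusted p = 4.68e-06).

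Glucocorticoid targets, of which 10 of 11 were tested, had 6 higher and 3 lower at 3 h, 7 and 2 at 24 h, and 5 and 4 between the fed groups. The number lower at 24 h was 0 without replicate 1 of fed 24 h and 1 without replicate 3 of unfed or replicate 3 of fed 24 h. Dusp1, a phosphatase of MAP kinases that many stimuli induce, rose by 1.54 at 24 h (edgeR adjusted p = 5.88e-08). Tsc22d3 (GILZ) fell by 0.30 at 3 h (adjusted p = 0.00168) and rose by 0.30 at 24 h (adjusted p = 0.00293), whereas Fkbp5 rose by 0.41 at 3 h (adjusted p = 8.29e-06). The lysosome and phagosome list, which covers the breakdown of eaten cells, had 16 tested genes, with 6 higher and 3 lower at 3 h, 7 and 0 at 24 h, and 9 and 4 between the fed groups. At 24 h Ctsk (cathepsin K) rose by 0.52 (adjusted p = 9.76e-06), Psap (prosaposin) by 0.36 (adjusted p = 5.91e-05) and Ctsb (cathepsin B) by 0.27.

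**Figure D5:**
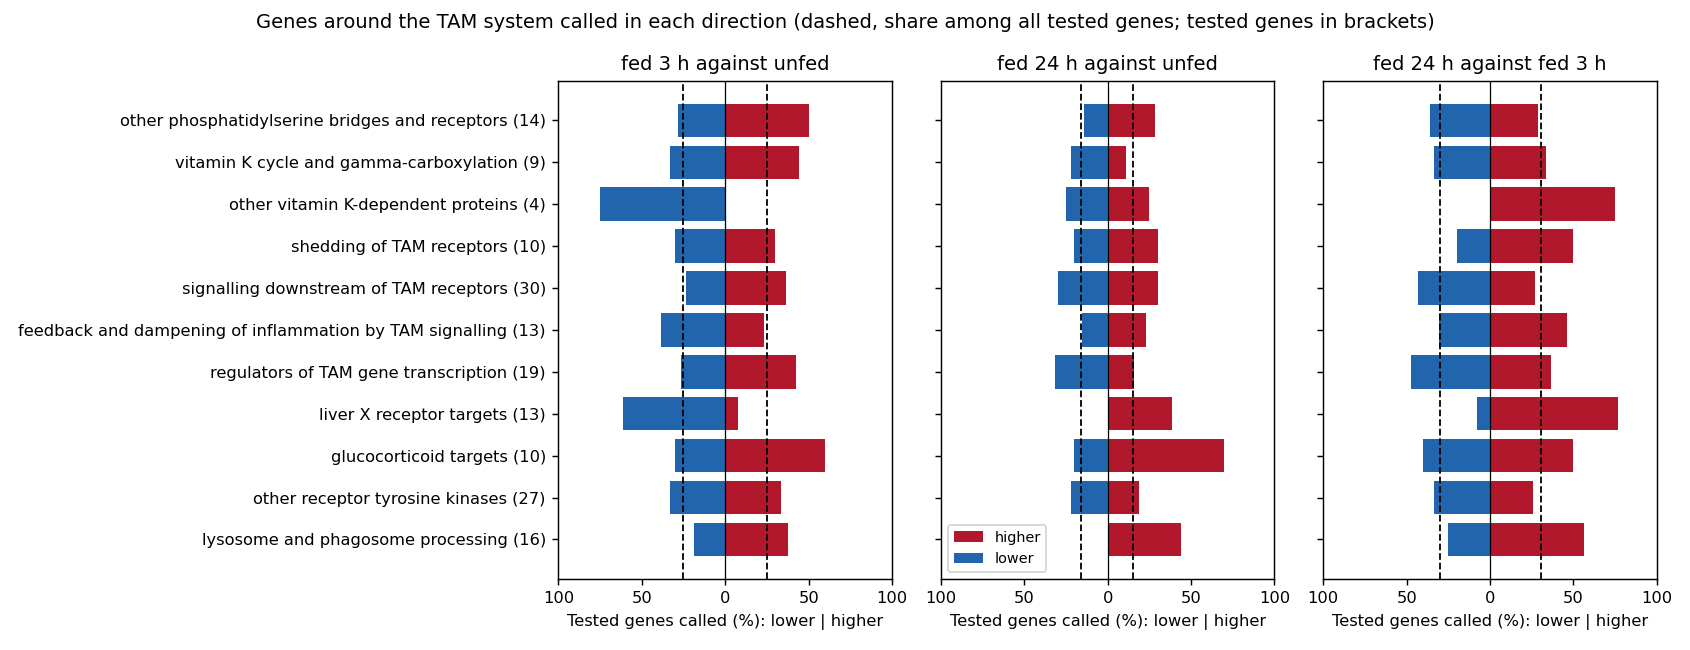
Share of the tested genes of each list called higher (red, right) or lower (blue, left) by edgeR at an adjusted p under 0.05, in the 3 comparisons, with the share among all tested genes as dashed lines and the number of tested genes in brackets. The list of candidate further ligands, with 1 tested gene, is not drawn. Liver X receptor targets lean to lower at 3 h (8 of 13) and to higher between the fed groups (10 of 13).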

How the data were processed

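RNA from 9 libraries of ST2 cells was measured by sequencing. The deposited values are raw read counts per gene symbol, made by the authors and not normalized. The submitters' processing notes list MultiQC 1.7, Subread 1.6.4, featureCounts and STAR 2.7.0f, and the human build GRCh38.p13 beside the mouse build GRCm38.p6. Strand setting, annotation release and handling of multi-mapping reads were not given in the sources used here. Protocols per the labels name a stranded kit (TruSeq) and the series text SMART-Seq v4 with Nextera XT, so whether reads kept their strand is unresolved and counts of overlapping genes are uncertain.

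Genes were tested with edgeR 4.0.16 in R 4.3.3 (filterByExpr, TMM, quasi-likelihood F-test) in 1 fit of all 9 libraries with the group as the only term. P-values were adjusted over 13568 genes by the Benjamini-Hochberg method and called under 0.05. The filter kept at least 99.96% of each library's counts. The common biological coefficient of variation was 0.0536. The scripts were tested on simulated data. Of the table's lines, 54560 (98.4%) carried a symbol of GENCODE M21, from which exon lengths were taken, and 26 lines held a date in place of a symbol. Between replicates, counts over genes varied by 5.20 to 15.4 times counting noise (chi-square per degree of freedom), so no libraries were merged. The floor of 3 counts covers counting error only, whereas the 95% interval of a fold change comes from the SE of the edgeR fit, by a normal approximation.

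The members and gene lists were chosen with earlier results of these data known. Within each list, up to 3 called genes per direction and comparison with the largest change and at least 5 CPM in the higher group could be named, beside 14 fixed genes and, for each member, the 3 genes with the highest correlation. Alternatives were other scalings, DESeq2 1.42.0, limma-voom (limma 3.58.1), other filters, a fit of only the 2 groups compared, a replicate block, a fit without mitochondrial and ribosomal RNA genes, and leaving out each library. Promoter windows came from RefSeq (GRCm38.p6), where 5 of 5 members matched. In addition, 1 gene of the list on dampening of inflammation is counted there but not reported here by name.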

Additional observations from a re-analysis of the deposited data

Results flagged for a closer look

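Each member was marked because its change at 24 h differed from its change at 3 h, both against the same unfed libraries, by the direct test of fed 24 h against fed 3 h in edgeR. That test compares the fed groups, in which length of feeding and time of collection change together and cannot be told apart. All unfed libraries were collected at 24 h, so the change at 3 h has no unfed library of its own time. The difference was −0.64 for Axl, −0.40 for Tyro3, 0.91 for Mertk, 1.92 for Gas6 and 0.30 for Pros1 on the log2 scale. Over all tested genes 60.9% differed by this test. Gas6 and Axl had opposite signs at the 2 times, Gas6 with −1.27 at 3 h and 0.65 at 24 h, and Axl with 0.45 at 3 h and −0.19 at 24 h. The Mertk difference rests on 50 counts in the fed 3 h group and 105 in the fed 24 h group.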

How the results depend on the processing

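The 15 member results were recomputed under 17 or 18 alternatives each, 267 in all, of which 259 kept the direction and the side of the threshold, and 12 of the 15 results kept them under each alternative run. The exceptions came from leaving out 1 library. Axl at 24 h against unfed ranged from −0.23 to −0.14, Tyro3 at 24 h against unfed from −0.21 to −0.11, and Mertk between the fed groups from 0.57 to 1.19, and each crossed the threshold in some of these fits, which test fewer samples. Members called at 24 h against unfed ranged from 2 to 4, and between the fed groups from 4 to 5. The filter of at least 1 CPM in 3 libraries removed Mertk, so it has no value there. Over the settings, no median log2 change of all genes was above 0.0390.

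By correlation between libraries, no pairing by replicate number was seen. Of the same-numbered pairs, 0 of 9 deviated together (r above 0.1), and 0 of 9 libraries correlated best with their own number in both other groups. This check cannot exclude pairing in single genes, and Gas6 had the same order of replicates in all groups. With the replicate block, Gas6 had −1.26 at 3 h and 0.66 at 24 h and Axl 0.45 and −0.19, and 3, 3 and 5 members were called at 3 h, at 24 h and between the fed groups, as without it. The block lowered the SE of Gas6 from 0.0807 to 0.0576 at 3 h and from 0.0775 to 0.0554 at 24 h. At both times the SE of Axl, Tyro3 and Mertk was higher with the block, and that of Pros1 hardly changed. Depth limits only Mertk, at 13 to 50 counts per library.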
